A study of Mus musculus with 14 samples.

Results

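The 40 genes described here carry out or time the copying of the genome and the division of the cell: 11 genes of origin licensing and the replication fork, 3 of nucleotide supply, 7 cyclins and kinases of G1, 5 of S, G2 and M phase (3 cyclins, Cdk1 and the phosphatase Cdc25c), 10 genes of mitosis, the transcription factors E2f1 and Foxm1, and the INK4 inhibitors Cdkn2a and Cdkn2b. They were taken by symbol, and all 40 were present among the 21878 genes of the deposited tables. After a filter on low counts 14100 genes were tested, and all 40 were among them, although Cdkn2a, Cdc25c and several mitotic genes had 0 to 5 reads in some groups and passed through the groups where they were high.

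Before S phase, Cdc6 and Cdt1 help to load the MCM helicase on replication origins, the GINS complex and PCNA act at the moving fork, and ribonucleotide reductase and thymidylate synthase supply nucleotides. Cyclin D with CDK4, then cyclin E with CDK2, phosphorylate the RB proteins and release E2F factors, which drive replication genes, while FOXM1 and B-MYB drive the mitotic genes that follow, through promoters that often hold CHR and CCAAT elements. Adult hepatocytes are quiescent and can return to the cycle after loss of liver tissue or after isolation, and the INK4 proteins hold the cycle in G1 by blocking CDK4.

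The study sequenced poly(A) RNA of hepatocytes of C57BL/6 mice in 7 groups of 2 libraries. FH were fresh hepatocytes, and FH YAP-/- were fresh hepatocytes labelled as lacking YAP, the transcriptional co-activator that the Hippo pathway restrains. BM 1D, BM 3D and BM 3W were hepatocytes held for 1 day, 3 days and 3 weeks in the medium labelled BM, BM 3W YAP-/- were YAP-/- hepatocytes held for 3 weeks in that medium, and LBDXL 3W were hepatocytes held for 3 weeks in the medium labelled LBDXL. The labels do not spell out BM or LBDXL, the allele or Cre line behind YAP-/-, the age or sex of the mice, or whether replicates were separate mice; p-values then measure only the spread between these libraries. The series title names YAP activation by mechanical tension as the setting of the study. The RNA is of whole cultures, in which fewer cells of a type and less RNA per cell cannot be told apart.

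Promoter sequences were compared because the licensing genes and the mitotic genes moved at different times in culture. RefSeq promoters (250 bases before to 50 after a start site, build GRCm38.p6) were found for 30 of the 40 genes. Both strands were searched for the E2F letters TTGGCGC, with the variant TTCGCGC, the variant TTCCCGC and the variant TTGCCGC, for the CHR letters TTTGAA with the variant TTCGAA, and for CCAAT. The run TTCGAA reads the same on both strands, and an E2F match on one strand can overlap one on the other. E2F letters were found in 6 of 8 licensing genes (75.0%) and in 1 of 9 mitotic genes (11.1%), against 9.6% of the 32851 promoters of the table. A CHR together with a CCAAT was found in 2 of 8 licensing genes (25.0%) and in 8 of 9 mitotic genes (88.9%), against 7.5% of all promoters. The 30 genes had 33 promoters, and a motif counted for a gene if any of its promoters held it. The share of all promoters is per promoter. A match is a description of letters, not of a bound site. The stretches below run 5′ to 3′ on the gene's strand with the matches in capitals, and were chosen after the values were seen, to show 2 licensing genes, the kinase Cdk1, and 2 genes of mitosis. Mcm5 (chr8:75109339-75109467, plus strand) holds 3 E2F matches, of which 2 overlap, and 1 CCAAT. Mcm6 (chr1:128359706-128359825, minus strand) holds 4 E2F matches in overlapping pairs and 2 CCAAT. Cdk1 (chr10:69352913-69353127, minus strand) holds 2 E2F, 2 CHR and 3 CCAAT. Cdc20 (chr4:118437344-118437433, minus strand) holds 1 CHR between 2 CCAAT. Top2a (chr11:99024200-99024419, minus strand) holds 4 CHR and 6 CCAAT.
Mcm5: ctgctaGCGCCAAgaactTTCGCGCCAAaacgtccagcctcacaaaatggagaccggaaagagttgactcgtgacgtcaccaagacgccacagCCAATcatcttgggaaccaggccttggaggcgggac
Mcm6: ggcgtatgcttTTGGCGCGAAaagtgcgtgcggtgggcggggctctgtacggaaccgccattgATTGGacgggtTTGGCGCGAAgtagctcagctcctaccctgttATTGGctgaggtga
Cdk1: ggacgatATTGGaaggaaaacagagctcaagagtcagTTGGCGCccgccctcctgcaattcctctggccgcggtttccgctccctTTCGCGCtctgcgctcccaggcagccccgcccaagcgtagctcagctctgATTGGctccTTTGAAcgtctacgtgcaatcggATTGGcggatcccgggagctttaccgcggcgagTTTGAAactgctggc
Cdc20: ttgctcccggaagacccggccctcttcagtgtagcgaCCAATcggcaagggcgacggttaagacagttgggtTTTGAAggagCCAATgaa
Top2a: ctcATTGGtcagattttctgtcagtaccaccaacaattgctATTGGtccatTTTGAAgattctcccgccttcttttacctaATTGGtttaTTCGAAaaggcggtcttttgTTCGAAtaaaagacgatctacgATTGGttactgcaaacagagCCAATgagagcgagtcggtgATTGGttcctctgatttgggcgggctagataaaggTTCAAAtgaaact

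The libraries held 15501005 to 21220365 counted reads. Levels below are CPM, counts scaled to a common library size after TMM normalisation, given as library 1 and library 2 of a group, and differences are log2 fold changes ± standard error from edgeR's quasi-likelihood test over all 14100 genes, with p-values adjusted by Benjamini-Hochberg and called under 0.05. Yap1, the targeted gene, checks the labels: it was at 87.6 and 97.6 CPM in FH and 23.1 and 26.5 in FH YAP-/-, and at 3 weeks in BM it was at 80.2 and 95.5 with YAP against 6.66 and 7.75 without (a log2 difference of -3.61 ± 0.21 at 3 weeks, adjusted p = 2.55e-05), so both YAP-/- groups were low. The summed level of 10 hepatocyte markers was 240069 and 236702 CPM in FH and between 39404 and 87021 in BM 1D and BM 3D. It was 214828 and 177899 in LBDXL 3W, 122828 and 102364 after 3 weeks in BM without YAP, and 35437 and 4876 in BM 3W. Library 2 of BM 3W thus stood lowest. Alb made up most of these sums. The other markers summed to 84981 and 86792 CPM in FH and to 27942 and 48066 in LBDXL 3W. They summed to 29637 and 24174 in BM 3W YAP-/-, and to 6254 and 2026 in BM 3W.

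**Figure D1:**
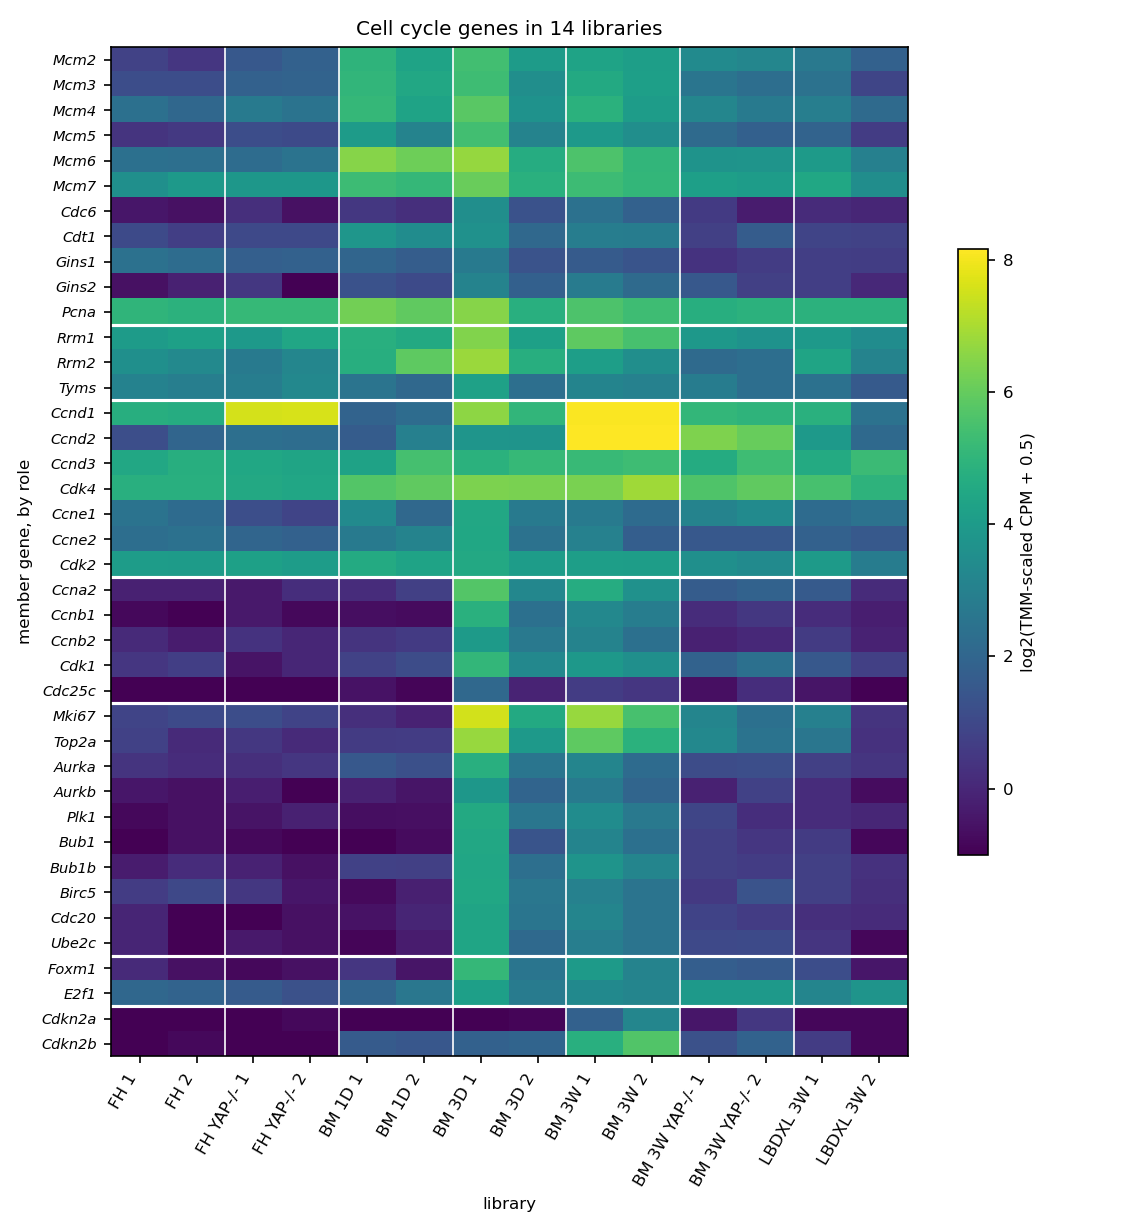
Level of each of the 40 genes (rows, by role) in each of the 14 libraries (columns), as log2(CPM + 0.5); BM 3D library 1 held the highest value of 32 of the 40 genes.

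The order of the groups differed by role. By the mean of its libraries, 26 of the 40 genes were highest in BM 3D, 7 in BM 3W, 5 in BM 1D, 1 in FH (Gins1, a GINS subunit) and 1 in BM 3W YAP-/- (E2f1). The lead of BM 3D rested on its library 1: without it 0 of the 40 genes were highest in BM 3D, 26 in BM 3W and 10 in BM 1D. The summed level of the 10 mitotic genes was 5.96 and 5.38 CPM in FH and 6.14 and 6.09 in BM 1D, then 465 and 74.4 in BM 3D and 237 and 116 in BM 3W; the 3-week libraries without YAP held 27.4 and 20.1, those of LBDXL 20.2 and 5.07. The summed level of the 11 licensing and fork genes was 63.1 and 61.6 CPM in FH, and already 334 and 250 in BM 1D. It was 475 and 139 in BM 3D, 242 and 184 in BM 3W, against 90.1 and 86.3 for BM 3W YAP-/- and 91.8 and 60.2 for LBDXL 3W. The mitotic sum thus separated BM 3D and BM 3W from the other 5 groups with no overlap, and the licensing sum separated BM 1D, BM 3D and BM 3W from the rest.

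The libraries of BM 3D differed from each other in these genes. The ratio of library 1 to library 2 had a median of 3.96 over the 39 members detected in both, against 1.02 over all genes, and 37 of the 39 were higher in library 1. The exceptions were Ccnd3 (ratio 0.811) and Cdkn2b, and the largest ratio was that of the checkpoint kinase Bub1, at 10.5. By role the median ratio was 4.84 for mitosis and 3.27 for licensing. LBDXL 3W had a median ratio of 1.95 and BM 3W of 1.34, while FH, FH YAP-/- and BM 3W YAP-/- had 1.03, 1.05 and 1.01. The summed hepatocyte markers were at 39404 CPM in library 1 and 87021 in library 2, a gap made mostly by Alb (25442 and 71046). The other markers summed to 13962 and 15975. Of them, Cps1 (1687 and 3783), Apob, Serpina1c, Hnf4a, Ass1 and Cyp2e1 were also lower in library 1. Apoa1 (5650 and 4690), Ttr and Tat were higher there. The part of this difference in the results was not tested, and counts of calls on BM 3D are given with and without library 1.

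**Figure D2:**
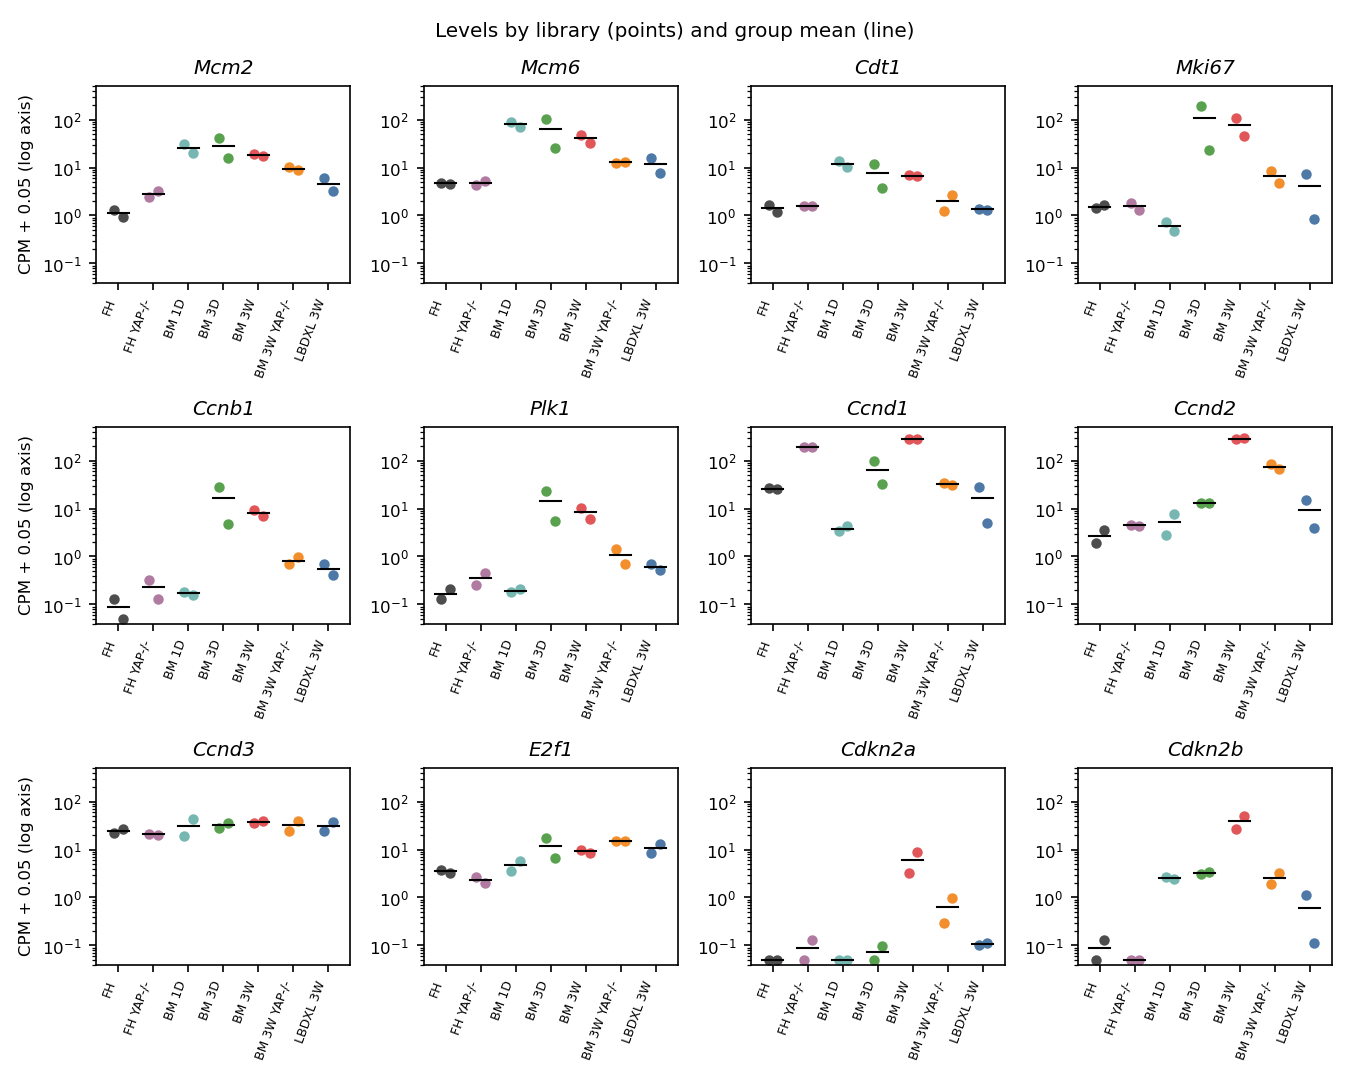
CPM + 0.05 on a log axis for 12 genes in the 7 groups; each point is a library and each line the mean of a group's 2 libraries. The replication genes stood high from BM 1D, the mitotic genes from BM 3D, and Ccnd2, Cdkn2a and Cdkn2b in BM 3W.

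After 1 day in BM, genes of origin licensing and the replication fork were higher than in fresh hepatocytes, while, of the later genes, 1 of 10 mitotic genes and none of S, G2 and M phase passed the test. In all, 11 of the 40 genes rose and 2 fell (Ccnd1 and Birc5), and 43.8% of all 14100 genes passed the same test, so the count for the 40 genes together was not above the background. Of the licensing and fork genes 8 of 11 rose, against 23.6% of all genes, with a median log2 difference of 2.67 against 0.17 over all genes. Mcm2, a subunit of the helicase (GRCm38.p6, chromosome 6, 88883474 to 88898780), was at 1.27 and 0.871 CPM in FH and 30.5 and 19.7 in BM 1D, a log2 difference of 4.54 ± 0.54 (adjusted p = 0.000104). Mcm6, another subunit, was at 4.69 and 4.59 CPM in FH and 89.9 and 70.6 in BM 1D, a log2 difference of 4.11 ± 0.61 (adjusted p = 0.000378). Cdt1, the helicase loader, was at 1.59 and 1.11 CPM in FH and 13.5 and 10.4 in BM 1D, a log2 difference of 3.14 ± 0.59 (adjusted p = 0.00158). For each of these genes both cultured libraries lay above both fresh libraries. Mcm3, Mcm4, Mcm5 and Mcm7 rose by 3.96 ± 0.67, 2.67 ± 0.64, 3.77 ± 0.80 and 1.46 ± 0.40, and Pcna, the sliding clamp, by 1.13 ± 0.40 (adjusted p = 0.0408). Cdc6, Gins1 and Gins2 did not pass, at 1.96 ± 1.05, -0.55 ± 0.50 and 2.67 ± 1.08.

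The remaining roles held few calls at day 1. Rrm2, the small subunit of ribonucleotide reductase, rose by 2.02 ± 0.64, from 11.5 and 9.42 CPM to 26.6 and 58.4, and Cdk4 rose by 1.08 ± 0.24, from 26.9 and 27.0 to 52.6 and 61.3. Ccnd1, the cyclin D1 gene (chromosome 7, 144929931 to 144939831), was at 26.3 and 25.0 CPM in FH and at 3.29 and 4.27 in BM 1D, a log2 difference of -2.76 ± 0.68 (adjusted p = 0.00738). Both of its cultured libraries were lower than both fresh ones, the opposite order to Cdk4, the kinase it pairs with. Cdkn2b, which encodes INK4B, had 1 read in FH and rose to 2.62 and 2.34 CPM, a ratio of summed counts of 62.8 with a 95% counting interval of 11.0 to 2503 (adjusted p = 0.00408). Of the 5 S, G2 and M genes, edgeR and DESeq2 both called 0, and 0 had an unadjusted edgeR p under 0.05. These genes had few reads, so the miss does not show equal levels. Their summed level was 1.91 and 1.82 CPM in FH and 3.02 and 3.96 in BM 1D. Their median log2 difference was 1.03 with Cdc25c at its bound, against 0.17 over all genes. Birc5, the survivin gene of the chromosomal passenger complex, fell by 2.48 on the log2 scale (standard error 0.92, adjusted p = 0.0483), from 1.03 and 1.5 CPM to 0.0903 and 0.364, and was the only mitotic gene called. Scaling to total counts moved the median of all genes in this comparison from 0.17 to 1.08 and the members' split to 21 higher and 1 lower.

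From day 1 to day 3 in BM the mitotic genes and the cyclins of S, G2 and M phase rose, while the licensing genes did not pass the test. Of the 40 genes 16 rose and 0 fell, and 5.26% of all genes passed, 3.67% higher and 1.6% lower. The 16 were all 10 mitotic genes, 4 of the 5 S, G2 and M genes (Ccna2, Ccnb1, Ccnb2 and Cdk1), Foxm1 and Ccnd1. Ccnb1, the cyclin that drives entry into mitosis, was at 0.135 and 0.104 CPM in BM 1D and 27.7 and 4.68 in BM 3D, a log2 difference of 7.0 ± 0.98 (adjusted p = 0.00545). Mki67, a marker of cycling cells (chromosome 7, 135689784 to 135716450), was at 0.677 and 0.417 CPM in BM 1D and 188 and 23.4 in BM 3D, a log2 difference of 7.56 ± 1.26 (adjusted p = 0.00958). Plk1, a mitotic kinase, was at 0.135 and 0.156 CPM and then 23.1 and 5.52, a log2 difference of 6.56 ± 0.85 (adjusted p = 0.00485). In each of these genes the 2 day-3 libraries lay far apart, and both lay above both day-1 libraries. Bub1 had 2 reads in BM 1D, and its ratio of summed counts was 271 (95% counting interval 74.8 to 2245), or 43.8 from BM 3D library 2 alone. Foxm1, the factor that drives such genes, rose by 5.17 from 0.858 and 0.208 CPM to 34.1 and 5.37 (adjusted p = 0.024), and Ccnd1 rose by 4.09 ± 0.71 to 96.7 and 32.5. Of the 11 licensing and fork genes edgeR called 0 and DESeq2 1, and 1 had an unadjusted edgeR p under 0.05; their median was 0.36 against 1.51 for all 40 genes and 0.02 for all genes tested. With Cdkn2a, at 0 reads in BM 1D, at its bound, the median over the 40 genes was 1.37.

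With the 4 libraries of BM 1D and BM 3D fitted alone, 0 of all 12512 genes tested were called. The comparison also depended on single libraries, among the members and over all genes. Without BM 3D library 1 it had 10 calls (9 higher and 1 lower), without BM 1D library 1 it had 2, without BM 1D library 2 it had 9, and with these 4 libraries fitted alone it had 0. In the same comparison 19 of 30 other mitosis genes rose and 0 fell, against 2 and 0 of 30 other replication genes. Of all genes 3.67% rose and 1.6% fell. Anln, a contractile ring protein, rose by 5.10 ± 0.73 from 1.13 and 1.61 CPM to 72.4 and 21.4 (adjusted p = 0.0058). Tk1, a thymidine kinase, rose by 3.95 ± 0.57 from 0.135 and 0.833 CPM to 8.75 and 6.01 (adjusted p = 0.0058). At day 3 Tk1 was still below its level in FH, 37.5 and 35.3 CPM.

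**Figure D3:**
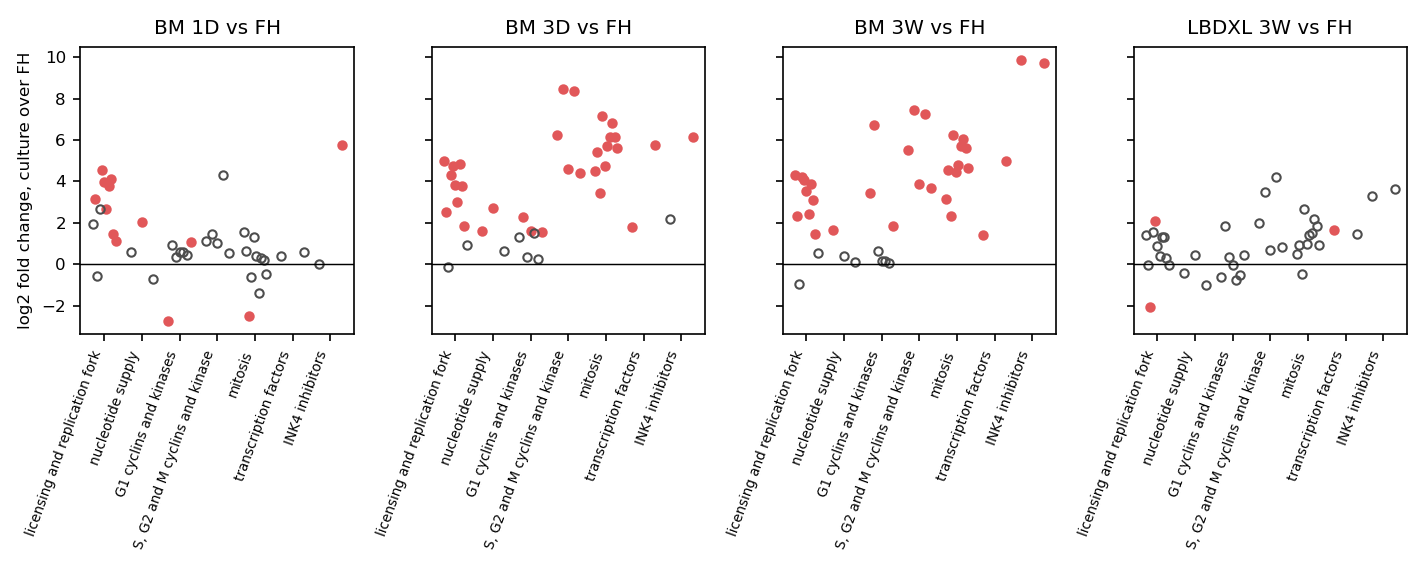
Log2 fold change over FH of the members, by role, in the 3 BM groups and LBDXL 3W; filled red points passed the test, and points of genes with almost no reads in FH are fitted values, not measured sizes. Licensing genes were called in all 3 BM groups, and 3 of the 40 genes in LBDXL 3W. Mitotic genes were called higher in BM 3D and BM 3W, and 1 (Birc5) lower in BM 1D.

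At 3 days and at 3 weeks in BM, 32 of the 40 genes were above fresh hepatocytes and 0 below. The comparisons of cultures with FH share the 2 FH libraries, so their values are set side by side without a count of overlap. At 3 days 40.5% of all genes passed, 22.5% higher, and at 3 weeks 59.1%, 33.0% higher. The median log2 difference over the 40 genes was 4.07 at 3 days (3.82 with Cdc25c and Cdkn2a at their bounds) and 3.78 at 3 weeks (3.62 so), against 0.17 over all genes at each time. By role, licensing and fork genes gave 9 of 11 higher at each time, S, G2 and M genes 5 of 5, and mitotic genes 10 of 10. Mki67 was at 1.35 and 1.58 CPM in FH and 108 and 44.3 in BM 3W, with differences of 6.16 ± 1.18 at 3 days (adjusted p = 0.00204) and 5.70 ± 1.16 at 3 weeks (adjusted p = 0.00163). Mcm2 stood at 41.1 and 15.9 CPM in BM 3D and 19.4 and 17.3 in BM 3W, the latter a difference of 4.09 ± 0.53 from FH (adjusted p = 9.51e-05). In both genes the day-3 libraries spanned the 3-week libraries, and all 4 lay above the fresh ones.

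Several of these genes had almost no reads in fresh cells. Ccnb1 had 1 read in FH, and its ratio of summed counts was 437 at 3 days (95% counting interval 78.1 to 17264) and 200 at 3 weeks (35.8 to 7928). Plk1 had 3 reads in FH, with ratios of 127 (43.4 to 619) and 68.0 (23.1 to 331). Cdc25c, the phosphatase that activates CDK1, was without a read in FH; against a floor of 3 reads per library it was at least 8.85-fold higher at 3 days, with 3.77 and 0.443 CPM, and at least 4.06-fold higher at 3 weeks, with 1.06 and 0.868 CPM. The day-3 sizes rested on library 1: from library 2 alone the limit for Cdc25c was 1.86-fold and the ratios of Ccnb1 and Plk1 were 118 and 46.4. These intervals cover counting error only. The genes not called at 3 weeks were Gins1, Pcna, Rrm2, Tyms, Ccnd3, Ccne1, Ccne2 and Cdk2; Ccnd3, the cyclin D3 gene, differed by 0.63 ± 0.37 (adjusted p = 0.166). At 3 days 25 of the 40 genes were called without BM 3D library 1 or without FH library 1, 26 without FH library 2, and 36 without BM 3D library 2.

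From 3 days to 3 weeks in BM, 5 of the 40 genes changed, against 24.4% of all genes, so the count was below the background. The 4 that rose were the cyclins Ccnd1 and Ccnd2 and the inhibitors Cdkn2a and Cdkn2b, which act on the same step, and the 1 that fell was Rrm2. Ccnd2, the cyclin D2 gene (chromosome 6, 127125162 to 127152188), was at 1.83 and 3.48 CPM in FH, 2.71 and 7.55 in BM 1D, 13.1 and 13.0 in BM 3D, and 283 and 288 in BM 3W, a log2 difference of 4.45 ± 0.61 between the last 2 (adjusted p = 0.00063). Ccnd1 was at 96.7 and 32.5 CPM in BM 3D and 277 and 280 in BM 3W, a log2 difference of 2.11 ± 0.64 (adjusted p = 0.0341). Both 3-week libraries were above both day-3 libraries, and in each gene they lay close together.

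Cdkn2a and Cdkn2b lie side by side on chromosome 4 (GRCm38.p6, 89274473 to 89294619 and 89306289 to 89311032). Cdkn2a makes the INK4A and ARF transcripts, which gene counts cannot separate. It had 0 or 1 read in each library of FH, FH YAP-/-, BM 1D, BM 3D and LBDXL 3W, and stood at 3.12 and 8.65 CPM in BM 3W, against 0.243 and 0.905 without YAP. In BM 3W it was at least 24.7-fold above FH (adjusted p = 0.00103), and its ratio of summed counts to BM 3D was 273 (95% counting interval 48.8 to 10823); from BM 3W library 1 alone these were 13.1 and 140. Cdkn2b was at 3.08 and 3.35 CPM in BM 3D and 27.3 and 50.8 in BM 3W, a log2 difference of 3.60 ± 0.72 (adjusted p = 0.00639). Both genes were higher in library 2 of BM 3W, the reverse of the mitotic genes, of which the median ratio of library 1 to library 2 was 1.71. Of the 10 mitotic and the 11 licensing genes edgeR called 0 between 3 days and 3 weeks, with 0 at an unadjusted p under 0.05 and 0 called by DESeq2, and all their groups overlapped. The count stayed at 5 without BM 3D library 1, but with 5 higher and 0 lower, and became 10 (3 higher and 7 lower) without BM 3D library 2, 3 without BM 3W library 1 and 2 without BM 3W library 2.

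Per length, in the deposited FPKM values, the members with the highest group means in FH were Pcna (13.5 ± 1.12, SD, n = 2), Cdk4 (12.5 ± 0.275) and Ccnd3 (6.59 ± 1.16), where the ranges of Pcna and Cdk4 touched. In BM 3W the order was Cdk4 (109 ± 26.8 FPKM), Ccnd1 (99.2 ± 13.1), Ccnd2 (63.0 ± 9.26), Cdkn2b (49.2 ± 22.1) and Pcna (46.2 ± 3.78). The libraries of Cdk4 and Ccnd1 overlapped there, as did those of Cdkn2b with its neighbours Ccnd2 and Pcna. Among the D cyclins, cyclin D3 led in FH at 6.59 FPKM, ahead of cyclin D1 at 3.47 ± 0.0671 and cyclin D2 at 0.228 ± 0.0969, while in BM 3W cyclins D1 and D2 stood above cyclin D3 at 26.9 ± 1.49. In LBDXL 3W cyclin D3 was again the highest of these at 10.2 ± 0.0369 FPKM, with cyclin D1 at 3.3 ± 3.32.

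After 3 weeks in LBDXL few of the 40 genes differed from fresh hepatocytes by the test: 2 rose (Mcm2 and E2f1) and 1 fell (Gins1), while 21.3% of all genes passed, so the members' share was below the background. Mcm2 was at 5.97 and 3.14 CPM, above the fresh 1.27 and 0.871, a log2 difference of 2.09 ± 0.52 (adjusted p = 0.0169). E2f1 was at 3.66 and 3.24 CPM in FH and 8.56 and 13.0 in LBDXL 3W, a log2 difference of 1.64 ± 0.46 (adjusted p = 0.0276). Gins1 went the other way, from 4.85 and 4.27 CPM to 1.11 and 1.09, a log2 difference of -2.05 ± 0.53 (adjusted p = 0.02). In these 3 genes the groups did not overlap. Ccnd2 was at 15.0 and 3.87 CPM against 1.83 and 3.48 in FH, a log2 difference of 1.83 ± 0.61 that missed the threshold (adjusted p = 0.0541). Of the 10 mitotic genes edgeR called 0, with 0 at an unadjusted p under 0.05 and 0 called by DESeq2, and their median difference was 1.20 against 0.09 over all genes. That miss does not show equal levels: Mki67 differed by 1.49 ± 1.09, at 7.4 and 0.785 CPM against 1.35 and 1.58 in FH, where the groups overlapped. Without either FH library the count of all genes called fell over 1.5 times. The count of 3 became 0 without either FH library and 5 without either BM 3D library, and with total-count scaling, which moved the median of all genes from 0.09 to 0.57, it became 5 higher and 0 lower.

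Between the media at 3 weeks, 30 of the 40 genes were lower in LBDXL than in BM and 0 were higher, against 44.8% of all genes called, 21.1% higher and 23.7% lower. The median over the 40 genes was -2.73, and -0.02 over all genes. All 10 mitotic genes, 9 of 11 licensing and fork genes and 4 of 5 S, G2 and M genes fell. Ccnd2 was at 283 and 288 CPM in BM 3W and at 15.0 and 3.87 in LBDXL 3W, a log2 difference of -4.92 ± 0.63 (adjusted p = 0.000205). Ccnd1 was at 277 and 280 CPM against 28.0 and 4.95, a log2 difference of -4.08 ± 0.69 (adjusted p = 0.00105). Cdk4 was at 79.7 and 116 CPM against 44.6 and 29.9, a log2 difference of -1.40 ± 0.24 (adjusted p = 0.00112). For these 3 G1 genes both LBDXL libraries were below both BM libraries.

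Mitotic and inhibitor genes differed in the same direction. Plk1 was at 10.4 and 6.08 CPM in BM 3W and 0.634 and 0.483 in LBDXL 3W, a log2 difference of -3.86 ± 0.72 (adjusted p = 0.00176). Mki67 was at 108 and 44.3 CPM against 7.4 and 0.785, a log2 difference of -4.21 ± 1.04 (adjusted p = 0.00783). Cdkn2b was at 27.3 and 50.8 CPM against 1.06 and 0.0604, a log2 difference of -6.07 ± 0.84 (adjusted p = 0.000457). All 3 were separated between the groups, although LBDXL library 2 was the lower of its pair in each. Cdkn2a had 2 reads in LBDXL 3W, a ratio of summed counts of 0.00928 (95% counting interval 0.00112 to 0.0338). The 10 genes not called were Gins1, Pcna, Rrm2, Tyms, Ccnd3, Ccne1, Ccne2, Cdk2, Cdc25c and E2f1; E2f1 differed by 0.24 ± 0.44. The count of 30 fell to 17 without BM 3W library 1 and to 15 without LBDXL 3W library 2, and 15 of the 30 genes, among them Mcm2, Cdt1, Ccnd1, Ccnd2, Cdk4, Ccnb1, Mki67 and both INK4 genes, were called under every alternative run.

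**Figure D4:**
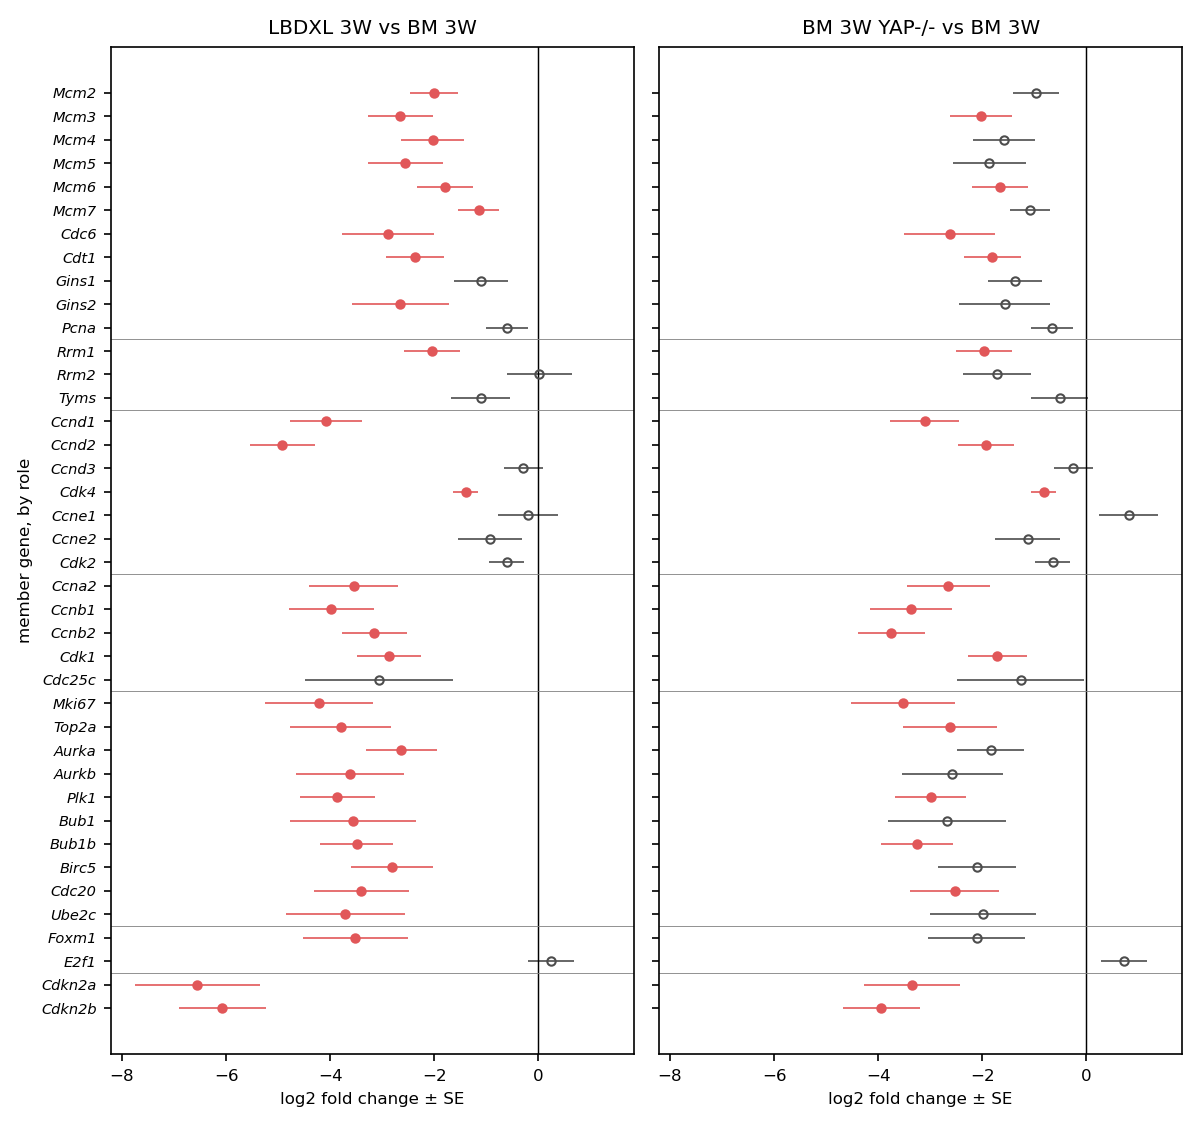
Log2 fold change ± standard error of the 40 genes at 3 weeks, LBDXL 3W over BM 3W on the left and BM 3W YAP-/- over BM 3W on the right, with called genes in filled red. Of the 40 genes 30 on the left and 19 on the right were called, all of them lower; the panels share the BM 3W libraries.

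Without YAP, 19 of the 40 genes were lower after 3 weeks in BM and 0 were higher, against 31.6% of all genes called, 15.0% higher and 16.6% lower. The median over the 40 genes was -1.90, and -0.03 over all genes. The 19 were 4 licensing genes (Mcm3, Mcm6, Cdc6 and Cdt1), Rrm1, the G1 genes Ccnd1, Ccnd2 and Cdk4, 4 of 5 S, G2 and M genes, 5 of 10 mitotic genes and both INK4 genes. Ccnd1 was at 277 and 280 CPM in BM 3W but 33.3 and 31.0 without YAP, a log2 difference of -3.11 ± 0.66 (adjusted p = 0.00596). Ccnd2 was at 283 and 288 CPM against 84.5 and 65.6, a log2 difference of -1.93 ± 0.54 (adjusted p = 0.0218). Ccnb2, a B-type cyclin, was at 8.06 and 4.79 CPM against 0.389 and 0.553, a log2 difference of -3.75 ± 0.64 (adjusted p = 0.00214). In each the libraries of the groups were far apart. Mki67 was at 8.6 and 4.68 CPM without YAP, a log2 difference of -3.52 ± 1.00 (adjusted p = 0.0219), and Cdkn2b was at 1.9 and 3.17 CPM, a log2 difference of -3.94 ± 0.74 (adjusted p = 0.004). Among the genes that missed the threshold, Aurka, a mitotic kinase, differed by -1.84 ± 0.65 (adjusted p = 0.0522) and Mcm7 by -1.08 ± 0.39 (adjusted p = 0.0554).

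E2f1 and Ccne1 were the members above BM 3W in the fitted difference. E2f1, itself an E2F factor, was at 15.2 and 14.9 CPM without YAP against 9.74 and 8.54 in BM 3W, a difference of 0.72 ± 0.44 that did not pass (adjusted p = 0.225). The count of 19 was unstable: it was 8 and 9 without BM 3W library 1 or 2, 5 and 3 without BM 3W YAP-/- library 1 or 2, and 29 without BM 3D library 2. Of the 19 genes, Ccnb2 and Cdkn2b were called under every alternative run. Between LBDXL 3W and BM 3W YAP-/-, 1 of the 40 genes was called, against 6.94% of all genes (2.61% higher, 4.33% lower): Ccnd2, lower in LBDXL 3W by a log2 difference of -2.99 ± 0.58 (adjusted p = 0.0143). That call was lost without either BM 3W YAP-/- library, and without LBDXL 3W library 1 there were 3 calls. For Ccnd1 the difference between these groups was -0.96 (adjusted p = 0.388).

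In FH YAP-/- Yap1 was still at 23.1 and 26.5 CPM, against 6.66 and 7.75 in BM 3W YAP-/-. Between FH YAP-/- and FH, edgeR called 0 of the 40 genes, against 0.943% of all genes (0.489% higher, 0.454% lower). At an unadjusted edgeR p under 0.05 there were 3 members, and DESeq2 called 1. That gene was Ccnd1, at 26.3 and 25.0 CPM in FH and 193 and 196 in FH YAP-/-, a log2 difference of 2.92 ± 0.66 whose adjusted p in edgeR was 0.0808. The replicates of each fresh group nearly coincided, and the groups lay well apart. Over many genes, replicate counts differed by a chi-square per degree of freedom of 5.49 in FH and 4.04 in FH YAP-/-. In the cultures it ran from 68 (BM 3W YAP-/-) to 235 (LBDXL 3W). A shared estimate of spread can thus be too wide for the fresh groups and too narrow for the cultures. The edgeR fit shares one estimate of spread across all 14 libraries, and Ccnd1 passed without BM 3D library 1 or 2, without LBDXL 3W library 1 or 2, and with the fresh groups alone, where 5 members were called, 3 higher and 2 lower, beside 4251 of all 11356 genes tested in that setting. In FPKM, Ccnd1 was the highest of the 40 genes in FH YAP-/-, at 30.4 ± 0.718 (SD, n = 2). Outside the 40 genes, Cdkn1a, a broad CDK inhibitor, rose from 1.75 and 1.5 CPM to 26.8 and 26.9, a log2 difference of 4.04 ± 0.47 (adjusted p = 0.00272).

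In YAP-/- cells the step from fresh hepatocytes to 3 weeks in BM gave 11 members higher and 2 lower. Of all genes 36.3% were called, 19.8% higher and 16.5% lower, so the count of 13 members was near the background. E2f1 rose from 2.62 and 1.92 CPM to 15.2 and 14.9, a log2 difference of 2.72 ± 0.48 (adjusted p = 0.00157). Ccnd2 rose from 4.55 and 4.32 CPM to 84.5 and 65.6, a log2 difference of 4.08 ± 0.62 (adjusted p = 0.000671), whereas Ccnd1 fell from 193 and 196 CPM to 33.3 and 31.0, a log2 difference of -2.59 ± 0.65 (adjusted p = 0.01). The D cyclins thus moved in opposite directions in these cells, with no overlap of groups in either. The other members that rose were Mcm2, Cdk4, Ccne1, Ccna2, Cdk1, Top2a, Cdc20, Foxm1 and Cdkn2b, and Gins1 fell; Cdkn2b had 0 reads in FH YAP-/- and was at least 11.3-fold higher. The median over the 40 genes was 1.61 (1.40 with genes at 0 reads at their bounds) against 0.11 over all genes. The count of 13 became 7 and 6 without FH YAP-/- library 1 or 2, and 6 and 7 without BM 3W YAP-/- library 1 or 2.

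The interaction tested whether the change from fresh hepatocytes to 3 weeks in BM differed between YAP-/- and other cells. The YAP-/- groups differed in remaining Yap1, at 23.1 and 26.5 CPM fresh and 6.66 and 7.75 at 3 weeks. Of the 40 genes 0 were above and 6 below in YAP-/- cells, against 16.9% of all genes called (8.04% higher, 8.84% lower), so the count was near the background. For Ccnd1 the difference of the changes was -6.03 ± 0.94 (adjusted p = 0.00314): in cells with YAP it rose by 3.44 ± 0.68 over FH (adjusted p = 0.00132), and without YAP it fell. The other 5 were Mcm2, Mcm3, Ccnd2, Ccnb2 and Plk1. The call of Ccnd1 stood under every alternative run, while the count was 1 to 3 without any single library of the 4 groups, 12 without BM 3D library 1 and 14 without BM 3D library 2.

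Other genes of the pathway were counted in lists of 30 replication genes, 30 mitosis genes, 8 CDK inhibitors and RB family genes, 11 E2F and MYB factors and 11 phase regulators. Against FH, the mitosis list had 5 higher and 3 lower at 1 day, 25 and 1 at 3 days, 24 and 2 at 3 weeks in BM, and 1 and 1 in LBDXL. The replication list had 11 higher and 4 lower, 18 and 4, 13 and 5, and 2 and 3. Of all genes, 23.6% were higher and 20.2% lower at 1 day, and 22.5% and 17.9% at 3 days. The shares were 33.0% and 26.1% at 3 weeks in BM, and 11.7% and 9.6% in LBDXL. In calls of either direction, the mitosis list at 1 day and both lists in LBDXL were below these shares. The replication list at 1 day and at 3 weeks in BM was near them. The falling replication genes included Mcm10, a fork protein that went against the MCM helicase genes: it was at 144 and 156 CPM in FH and 3.07 and 3.33 in BM 1D, a log2 difference of -5.55 ± 0.49 (adjusted p = 2.46e-05), and stayed at 4.73 and 3.77 CPM in BM 3W and 3.44 and 5.68 in LBDXL 3W. Tk1 fell from 37.5 and 35.3 CPM to 0.135 and 0.833 at 1 day, a log2 difference of -6.25 ± 0.60 (adjusted p = 3.54e-05). Pold1, a catalytic subunit of a replicative polymerase, rose by 3.73 ± 0.43 at 1 day (adjusted p = 8.78e-05).

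At 3 weeks, LBDXL against BM gave 2 higher and 23 lower of the 30 mitosis genes and 2 and 10 of the 30 replication genes. YAP-/- against BM gave 0 and 18, and 1 and 3. Of all genes, 21.1% were higher and 23.7% lower in LBDXL, and 15.0% and 16.6% without YAP. In calls of either direction, the replication list was near the share of all genes for LBDXL and below it for YAP-/-. Racgap1, which acts in cytokinesis, was at 18.3 and 11.6 CPM in BM 3W, against 1.26 and 1.51 without YAP and 0.951 and 0.242 for LBDXL 3W. Lig1, the DNA ligase of the fork, was at 29.1 and 21.1 CPM in BM 3W, 6.22 and 5.63 without YAP (a log2 difference of -2.08 ± 0.45, adjusted p = 0.0065) and 5.97 and 3.69 in LBDXL 3W (-2.37 ± 0.46, adjusted p = 0.00212).

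Among the other inhibitors, Cdkn1a was high in every culture, at 231 and 357 CPM in BM 1D, 153 and 202 in BM 3W and 246 and 103 in LBDXL 3W, with differences from FH of 7.49 ± 0.53, 6.77 ± 0.51 and 6.74 ± 0.51, and of -0.03 between the media at 3 weeks. Cdkn1c, a related inhibitor, was at 0.324 and 0.345 CPM in BM 3D and 6.31 and 5.78 in BM 3W, a log2 difference of 4.15 ± 0.46 (adjusted p = 0.000206), then 2.19 and 1.56 without YAP and 1.43 and 1.57 in LBDXL 3W, so it was highest in BM 3W, as the INK4 genes were. Rbl2, an RB relative of resting cells, fell from 110 and 117 CPM in FH to 17.8 and 18.1 in BM 1D, a log2 difference of -2.66 ± 0.30 (adjusted p = 7.53e-05), and was at 57.6 and 90.4 in LBDXL 3W. Among the factors, Mybl2, the B-MYB gene, rose from 0.557 and 0.396 CPM in FH to 12.1 and 3.84 in BM 3D (4.05 ± 0.65, adjusted p = 0.000765), while E2f8, a repressing E2F, was at 13.2 and 16.1 CPM in FH and 1.0 and 0.544 in LBDXL 3W (-4.22 ± 0.76, adjusted p = 0.00339).

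Markers of other cell types differed between the groups that differ in the 40 genes. The summed level of 10 stellate cell and fibroblast markers was 9137 and 10867 CPM in BM 3W, and between 44.5 and 520 in the other 12 libraries, of which BM 3W YAP-/- held 499 and 414 and LBDXL 3W 520 and 286. The sum of 8 macrophage markers was 916 and 788 CPM in BM 3W, against 223 and 223 without YAP, and 9.67 and 8.28 for LBDXL 3W. Of the 8, 6 were called higher in BM 3W than in FH and 2 lower, the Kupffer cell genes Clec4f and Timd4. Clec4f was at 27.3 and 17.1 CPM in FH and 0.24 and 0.0898 in BM 3W. Timd4 was at 2.62 and 2.3 CPM in FH and 0.137 and 0 in BM 3W. Both genes were at 0 in LBDXL 3W. The sum of 8 cholangiocyte markers was 4484 and 5188 CPM in BM 3W and between 33.7 and 622 elsewhere; Spp1, which is not particular to cholangiocytes, made up 4338 and 5038 of the BM 3W sums, and the other 7 genes summed to 146 and 150. The sum of 8 endothelial markers was 140 and 3.62 CPM in the 2 LBDXL 3W libraries. Of 8 lymphocyte markers, Ptprc, a gene of all leukocytes including macrophages, carried the sum in BM 3W, at 51.9 and 28.4 CPM of 51.9 and 28.5, and the T cell genes Cd3e, Cd3g and Cd8a were among those at 0. BM 3D, where the mitotic genes were also high, had 92.6 and 275 CPM of the stellate and fibroblast markers. Library 1 of BM 3D and of BM 3W held the higher mitotic sum and the lower sum of these markers. In LBDXL 3W (mitotic sums of 20.2 and 5.07 CPM) and in BM 3W YAP-/- (27.4 and 20.1), library 1 was higher in both. The part of these cell types in the differences of BM 3W was not tested.

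**Figure D5:**
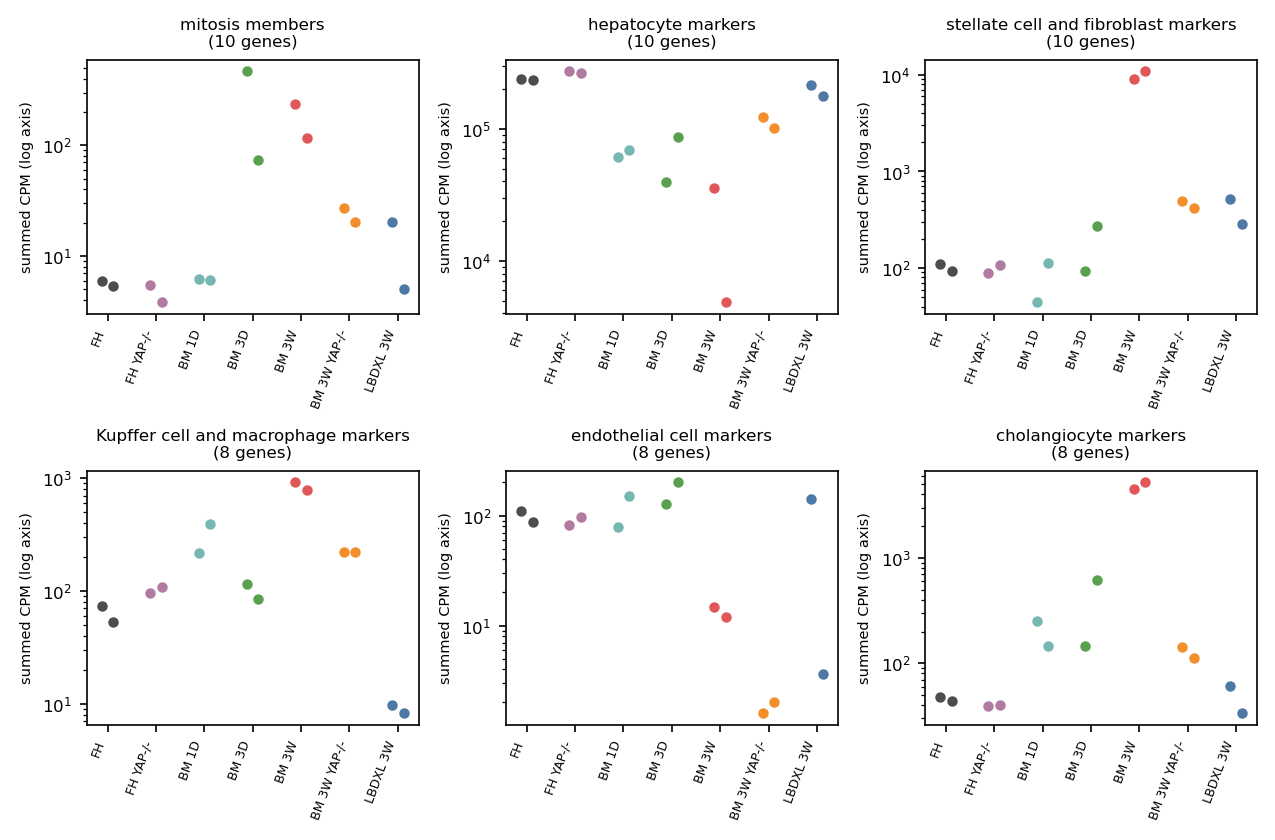
Summed CPM (log axis) of the 10 mitotic genes and of 5 marker lists in each library, by group. BM 3W was highest in stellate and fibroblast, macrophage and cholangiocyte markers, the last through Spp1, and BM 3D library 1 in the mitotic genes.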

How the data were processed

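RNA was prepared with a stranded mRNA kit and sequenced in pairs on an Illumina HiSeq, per the labels' protocols. The deposited gene counts and FPKM values were made by the authors with Trimmomatic, HISAT2, HTSeq, Cufflinks and DESeq on GRCm38.p6, per the submitters' processing notes; versions and the strand setting of the counting are not given in the sources used here. The count tables were joined by gene (21878 genes, 4326 at 0 reads in every library; 27 symbols turned into dates were restored). edgeR 4.0.16 (R 4.3.3) fitted 1 mean per group to the 14 libraries after filterByExpr (14100 genes) and TMM scaling (factors 0.6482 to 1.691), with quasi-likelihood tests and Benjamini-Hochberg adjustment. A read floor of 3 per library was used for groups at 0, which is 0.08984 to 0.24 CPM. DESeq2 1.42.0 and limma 3.58.1 on log2(FPKM + 1) were alternatives. On simulated counts for LBDXL 3W against BM 3W (13575 genes), 71 of 100 genes changed by a log2 of 2 and 97 of 100 changed by 4 were recovered, with 13 false calls. The changed genes were drawn above a limit on mean reads, and all groups otherwise had the same means. Each gene was drawn independently, so shifts of many genes within a library, as in BM 3D, were not part of it. The 40 genes, the lists and the comparisons were chosen with earlier results of these data known. All 40 may be named; of each other list, at most the 3 called genes with the smallest p per comparison that do not overlap, and Cdkn1a, Cdkn1b, Rb1, E2f7, E2f8 and Mybl2.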

Additional observations from a re-analysis of the deposited data

Results flagged for a closer look

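The change from fresh hepatocytes to 3 weeks in BM differed between YAP-/- and other cells, by the interaction term in edgeR over all 14100 genes, for 6 of the 40 genes, each lower in YAP-/- cells, beside 16.9% of all genes called and 8.84% called lower. The log2 difference of the changes was -6.03 ± 0.94 for Ccnd1 (adjusted p = 0.00314) and -4.26 ± 0.95 for Ccnb2 (adjusted p = 0.0138). It was -4.27 ± 1.27 for Plk1 (adjusted p = 0.0425) and -2.67 ± 0.82 for Ccnd2 (adjusted p = 0.0484). For the helicase subunits it was -2.31 ± 0.69 for Mcm2 (adjusted p = 0.0441) and -2.9 ± 0.89 for Mcm3 (adjusted p = 0.0466). For Ccnd1 the order of the fresh groups was the reverse of that at 3 weeks, with 193 and 196 CPM in FH YAP-/- against 26.3 and 25.0 in FH, and 33.3 and 31.0 in BM 3W YAP-/- against 277 and 280 in BM 3W. Plk1 had 3 reads in FH and 8 in FH YAP-/-, so its fresh level rests on few reads. Of the 6 genes, Ccnd1 alone was called under every alternative run.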

How the results depend on the processing

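Over 174 gene results under 25 settings each, 3937 kept direction and call, 382 lost the call, 17 gained one and 1 turned: Ccnd1 in LBDXL 3W against FH was 0.13 without LBDXL 3W replicate 2 and -2.37 without replicate 1 (-0.64 with both). Counts of members called moved over 1.5 times as follows (the cause was not tested). With total counts there were 22 for BM 1D and 5 for LBDXL 3W against FH, 32 for YAP-/- against BM 3W and 13 for the interaction. This scaling moved the median log2 difference of all genes from 0.17 to 1.46 for BM 3W against FH and from -0.02 to -0.84 for LBDXL 3W against BM 3W. The split of all genes called became 7064 higher and 1351 lower for BM 1D, 7575 and 1038 for BM 3D, 9282 and 1364 for BM 3W and 3593 and 822 for LBDXL 3W against FH, 2540 and 704 for BM 3W against BM 3D, 1135 and 6650 for LBDXL 3W and 798 and 5053 for YAP-/- against BM 3W, 211 and 736 for LBDXL 3W against BM 3W YAP-/-, 5193 and 1278 for the step in YAP-/- cells and 463 and 2780 for the interaction; the split of the members moved by over 10 percentage points for BM 1D and LBDXL 3W against FH. DESeq2 gave 2 for LBDXL 3W against BM 3W YAP-/-, 1 for the fresh groups and 11 for the interaction. The compared groups alone gave 0 for BM 3D against BM 1D, 29 for YAP-/- against BM 3W, 0 for LBDXL 3W against BM 3W YAP-/-, 5 for the fresh groups, 21 for the step in YAP-/- cells and 21 for the interaction. limma on log2(FPKM + 1) gave 34, 2, 1, 8 and 19 for the last 5 of these, and log2(FPKM + 0.1) gave 5 for LBDXL 3W against FH, 35 for YAP-/- against BM 3W, 2 for LBDXL 3W against BM 3W YAP-/- and 23 for the interaction. FPKM without a filter gave 0 for LBDXL 3W against FH, 10 for BM 3D against BM 1D, 8 for the step in YAP-/- cells and 12 for the interaction, and counts without a filter 1 for the fresh groups. Leaving out one replicate at a time gave 9 to 14 for BM 1D, 25 to 36 for BM 3D, 25 to 34 for BM 3W and 0 to 5 for LBDXL 3W against FH, 2 to 20 for BM 3D against BM 1D, 2 to 10 for BM 3W against BM 3D, 15 to 33 for LBDXL 3W and 3 to 29 for YAP-/- against BM 3W, 0 to 3 for LBDXL 3W against BM 3W YAP-/-, 0 to 1 for the fresh groups, 6 to 18 for the step in YAP-/- cells and 1 to 14 for the interaction. Leaving out 1 replicate also moved the count of all genes called over 1.5 times in each of these comparisons except BM 3W against FH. The labels link same-numbered libraries by number alone and do not say whether they shared a preparation. Deviations of such libraries from their group means correlated over 0.1 in 6 of 21 pairs of groups (lowest -0.0402, highest 0.492). With the replicate block there were 10 calls in the interaction, 24 for YAP-/- against BM 3W and 17 for the step in YAP-/- cells. With 2 libraries a group, and under 5 reads for Ccnb1, Plk1 and Bub1 in FH, the size of their rise is known only within wide limits.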
